A study of Mus musculus with 9 samples.

Results

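RNA of 44 DNA replication and nucleotide supply genes was measured in bone from young and aged mice. The genes were chosen by name from a deposited table of 56980 genes and sorted by role. The helicase group had 12 genes, origin licensing and firing 8, the polymerases, clamp and fork 17, nucleotide supply 5 and chromatin assembly 2. All 44 genes passed the filter on low counts, which left 16576 genes to test, and each had between 134 and 13976 estimated counts in a library. The mice were wild-type C57BL/6 without other treatment, 4 of them young (3 months) and 5 aged (20 months), with 1 library per mouse. Each library was labelled as a biological replicate, the animals were described as female, and no transgene or other allele was named. Tissue was labelled bone marrow, and total RNA came from homogenised trabecular bone, so that marrow cells and bone cells contributed to each library. The comparison asked which transcripts differ with age in a study of sensory nerves in ageing bone.

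As background, a cell copies its DNA in S phase by first loading rings of Mcm2 to Mcm7 at origins, with the origin recognition complex, Cdc6 and Cdt1. Cdc45 and the GINS proteins then turn each ring into a moving helicase, polymerases follow on the clamp Pcna, and ribonucleotide reductase with thymidylate enzymes makes the building blocks. Marrow is known for its many dividing precursors, above all those of red cells, granulocytes and B cells, and E2F transcription factors switch on many of these genes as cells enter S phase.

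Library totals were 19804783 to 23548521 estimated counts. The libraries fell into 2 sets, for which the labels gave no reason. Young 4, aged 3 and aged 4 had 5.66% to 6.58% of their counts in ribosomal protein genes, and the other 6 had 2.87% to 3.09%. Transcripts that mark sex went against the stated female sex in young 1 to 4 and aged 5, which had 1 to 9 counts of Xist, made from the silenced X chromosome of females, and 888 to 1721 counts of the Y-linked gene Ddx3y. Aged 1 to 4 had 7909 to 21724 counts of Xist and 0 of Ddx3y, so age and these transcripts cannot be told apart except through aged 5. Results are therefore given with group as the only term, with the library set added as a term, within each set, and for aged 5 alone. Levels are CPM, the usual depth-scaled unit of counts, with library sizes adjusted by trimmed mean of M-values (TMM) factors, differences are log2 fold changes of aged over young, and a gene was called at an adjusted p under 0.05 in the quasi-likelihood test of edgeR.

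Replication genes took a smaller share of the RNA in every aged library than in any young one. Together the 44 genes held 0.547%, 0.570%, 0.528% and 0.527% of all counts in young 1 to 4, and 0.368%, 0.352%, 0.419%, 0.407% and 0.444% in aged 1 to 5. The young values lay close together, the aged values were more spread, and aged 5 was the nearest to the young libraries. After scaling the sum was 4855, 5253 and 4865 CPM in young 1 to 3 and 3148, 3106 and 3938 CPM in aged 1, 2 and 5. It was 7499 CPM in young 4 and 5099 and 4724 CPM in aged 3 and aged 4, so that scaled sums of young and aged libraries overlapped across the sets but not within either one.

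**Figure D1:**
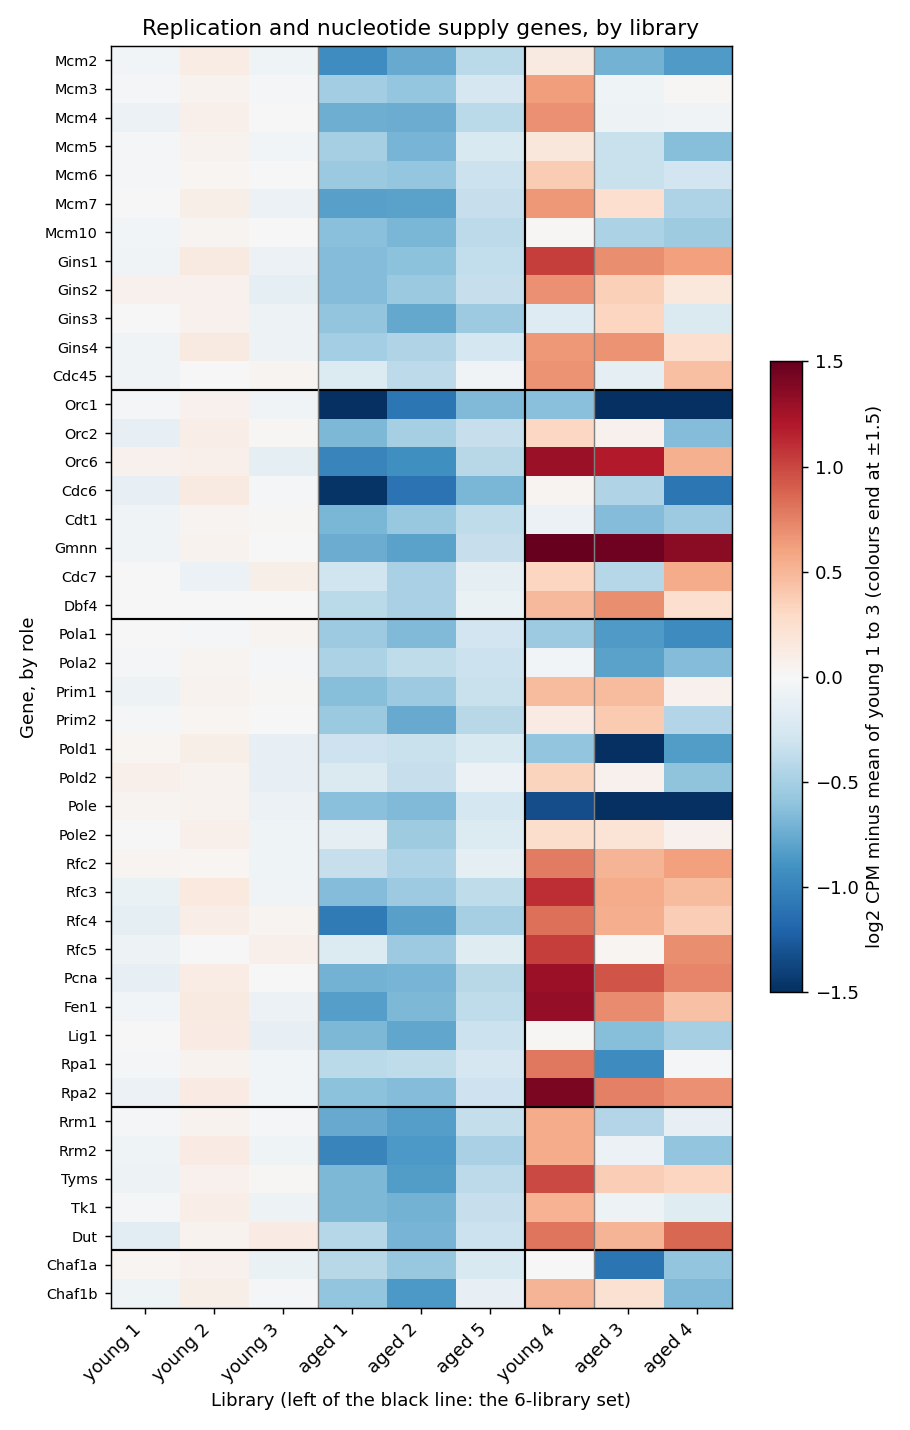
Level of each of the 44 genes (rows, grouped by role) in each library (columns), as log2 CPM minus the mean of young 1 to 3; blue is lower and red is higher. Aged 1, 2 and 5 are blue in all rows, while young 4, aged 3 and aged 4 hold both strong reds (Gmnn, Orc6, Pcna) and strong blues (Pole, Orc1).

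With group as the only term all 44 genes lay below 0, with a median log2 fold change of −0.47 and a range of −1.16 (Orc1) to −0.08 (Dbf4), beside a median of 0.03 over all genes tested. None was called, as none of the 16576 genes was (0% of all genes), and the smallest adjusted p of a replication gene was 0.266 (edgeR). At an unadjusted p under 0.05, 17 of the 44 were lower in aged libraries, beside 4.64% of all genes. DESeq2 with the same single term called 8 of the 44, all lower (Mcm2, Mcm5, Mcm6, Mcm10, Orc1, Cdc6, Cdt1 and Lig1), beside 1.01% of all genes. In the authors' deposited table all 44 log2 fold changes were below 0, with a median of −0.46, and 6 genes had an adjusted p under 0.05 (Mcm2, Mcm10, Orc1, Cdc6, Cdt1 and Lig1), beside 0.682% of the 16576 genes that were lower with an adjusted p under 0.05 in the authors' deposited table. Every aged library lay below every young library for 13 of the 44, beside 2.76% of all genes. These 13 were Mcm2, Mcm5, Mcm6, Mcm10, Orc1, Cdc6, Cdt1, Pola2, Lig1, Rrm1, Rrm2, Tk1 and Chaf1a. Without young 4 the median was −0.30 and 34 of the 44 lay below 0.

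With the library set as a term, edgeR called 18 of the 44 genes, all lower in aged libraries, beside 1.31% of all genes called lower. The 44 lay below 0 here too, at a median of −0.53 beside 0.01 over all genes. The called genes included 6 of the 12 helicase genes, 3 of the 8 origin genes, 5 of the 17 polymerase and fork genes, 4 of the 5 nucleotide genes and 0 of the 2 chromatin genes. Their adjusted p-values in edgeR lay between 0.0405 and 0.0498, just inside the threshold. The count rested on single libraries, as did that over all genes. It was 0 after any 1 of young 1 to 4 or aged 1, 2 or 4 was left out. In those fits 0 to 2 of all genes were called, in place of 319. The count of replication genes was 24 without aged 5 and 33 without aged 3, beside 712 and 1633 of all genes. With library totals in place of TMM factors only Orc1 was called. With Y-linked expression as a further term, so that aged 5 alone set the age effect, 0 of the 44 were called, the median was −0.33, and the value of Mcm2 was −0.42 in place of −0.76.

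**Figure D2:**
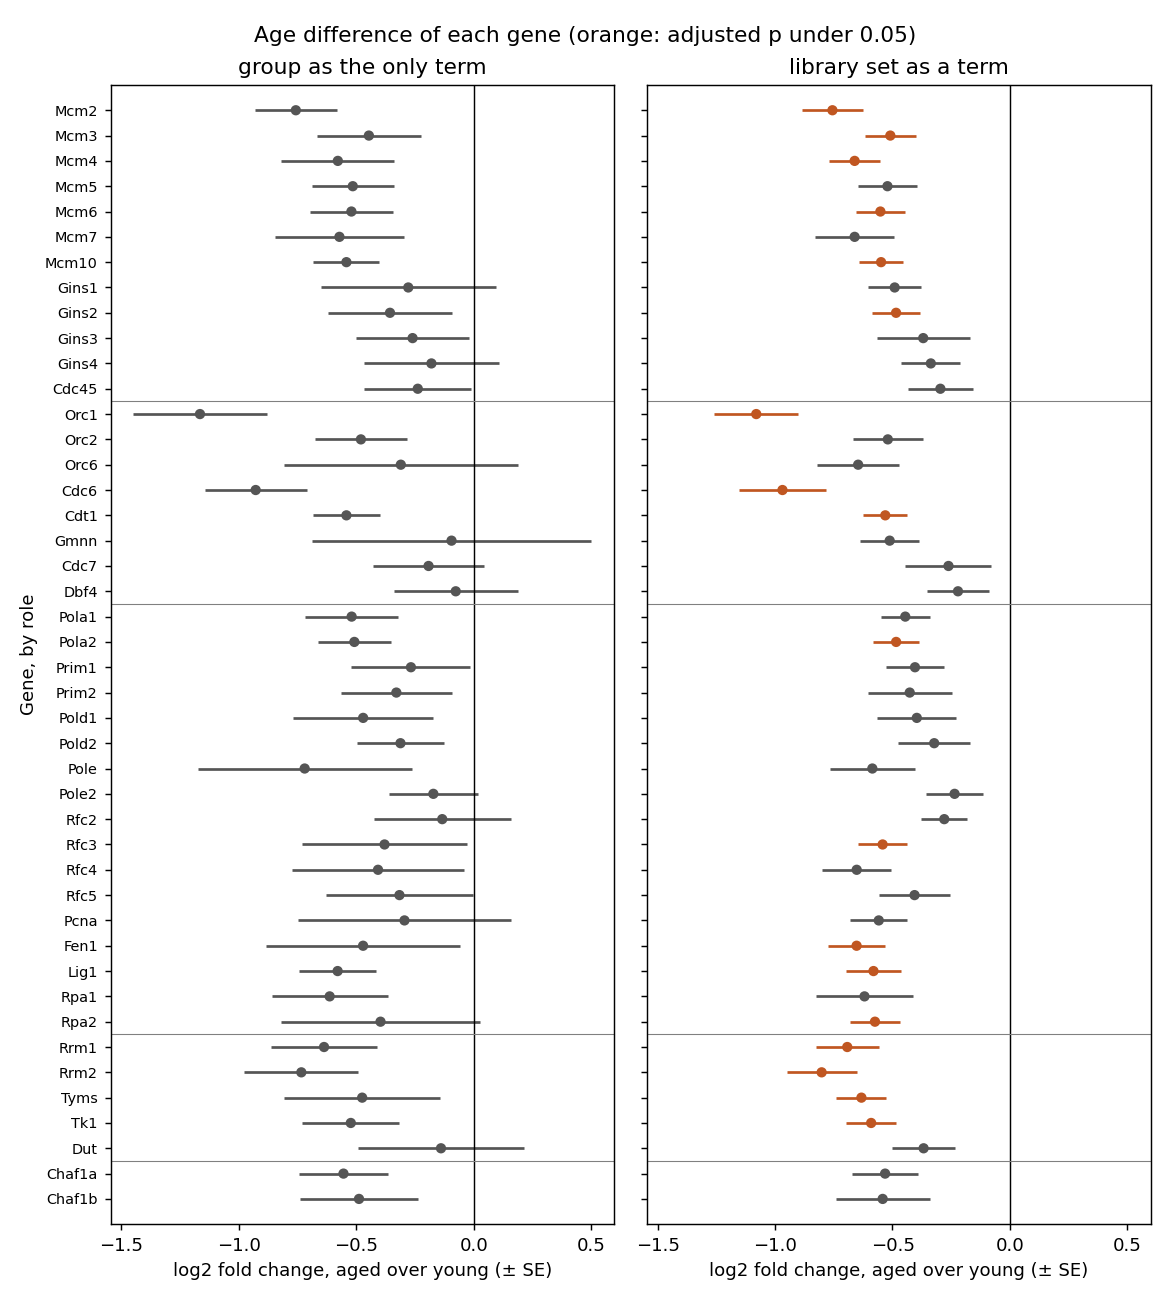
Age difference of each gene (log2 fold change, aged over young, points, with standard errors as lines) with group as the only term (left) and with the set term added (right); orange marks genes with an adjusted p under 0.05. All points lie left of 0 in both panels, none is orange on the left and 18 are orange on the right.

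Within the 6 libraries young 1 to 3 and aged 1, 2 and 5, the median was −0.51 and all 44 genes lay below 0. Each aged library of that set was below each young one for 42 genes, with Cdc45 and Pold2 as the exceptions, beside 16.6% of all genes. No replication gene was called there (adjusted p 0.0694 to 0.279 in edgeR), and 2 of 16644 genes were called at all (0.012%). In the other set, with young 4 as the only young library and hence no test, 42 genes lay below 0 at a median of −0.53, and Gins3 (0.34) and Dbf4 (0.07) lay above it. Both aged libraries of that set were below young 4 for 37 genes, beside 32.1% of all genes. A test of whether the age difference itself differed between the sets called 0 of the 44 (smallest adjusted p 0.925, edgeR), beside 0.0121% of all genes. At an unadjusted p under 0.05 that test passed 1 of the 44, Gins3, beside 863 of the 16576 genes.

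Aged 5, the aged library with Y-linked transcripts, was compared with young 1 to 3, which also had them, without a test. All 44 genes lay below 0, from −0.06 (Cdc45) to −0.70 (Cdc6), with a median of −0.35. For 41 genes aged 5 lay below young 1 to 3 and above both aged 1 and aged 2, beside 10.8% of all genes.

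Markers of other cell types differed between the groups in both directions. The summed level of 20 red cell precursor markers was 11111 to 12918 CPM in young libraries and 2275, 4855, 8936, 3438 and 6613 CPM in aged 1 to 5, without overlap, and their median log2 fold change with group as the only term was −1.21. For 18 B cell progenitor markers the sums were 714 to 840 CPM in young libraries and 327, 493, 1067, 457 and 348 CPM in aged 1 to 5, so that only aged 3 exceeded the young range. The sums of 9 early neutrophil markers (3912 to 6114 CPM in young, 3601 to 12429 CPM in aged) and 9 stem and progenitor markers (216 to 232 CPM in young, 208 to 253 CPM in aged) overlapped. With group as the only term 8 of the 9 early neutrophil markers lay above 0, at a median log2 fold change of 0.35. So did 6 of the 9 stem and progenitor markers, at a median of 0.12. Sums of 10 osteoblast markers overlapped too, at 2868 to 7492 CPM in young and 798 to 3157 CPM in aged libraries. All 10 nevertheless lay below 0 with group as the only term, at a median log2 fold change of −1.24. Sums were higher in every aged library than in any young one for 7 monocyte markers, at 1012 to 1304 CPM in young and 1546 to 2049 CPM in aged libraries. For 8 plasma cell markers the sums overlapped, at 371 to 702 CPM in young and 465 to 1611 CPM in aged libraries, and all 8 lay above 0 with a median log2 fold change of 1.22. Sums of late neutrophil, megakaryocyte, and T and NK cell markers overlapped as well. Their median log2 fold changes with group as the only term were 0.08, 0.01 and 0.52. None of these markers was at 0 in any library, so marrow and bone cell transcripts were present throughout. The part of these cells in the lower replication genes was not tested, and in bulk RNA fewer cells of a type and less RNA per cell cannot be told apart.

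**Figure D3:**
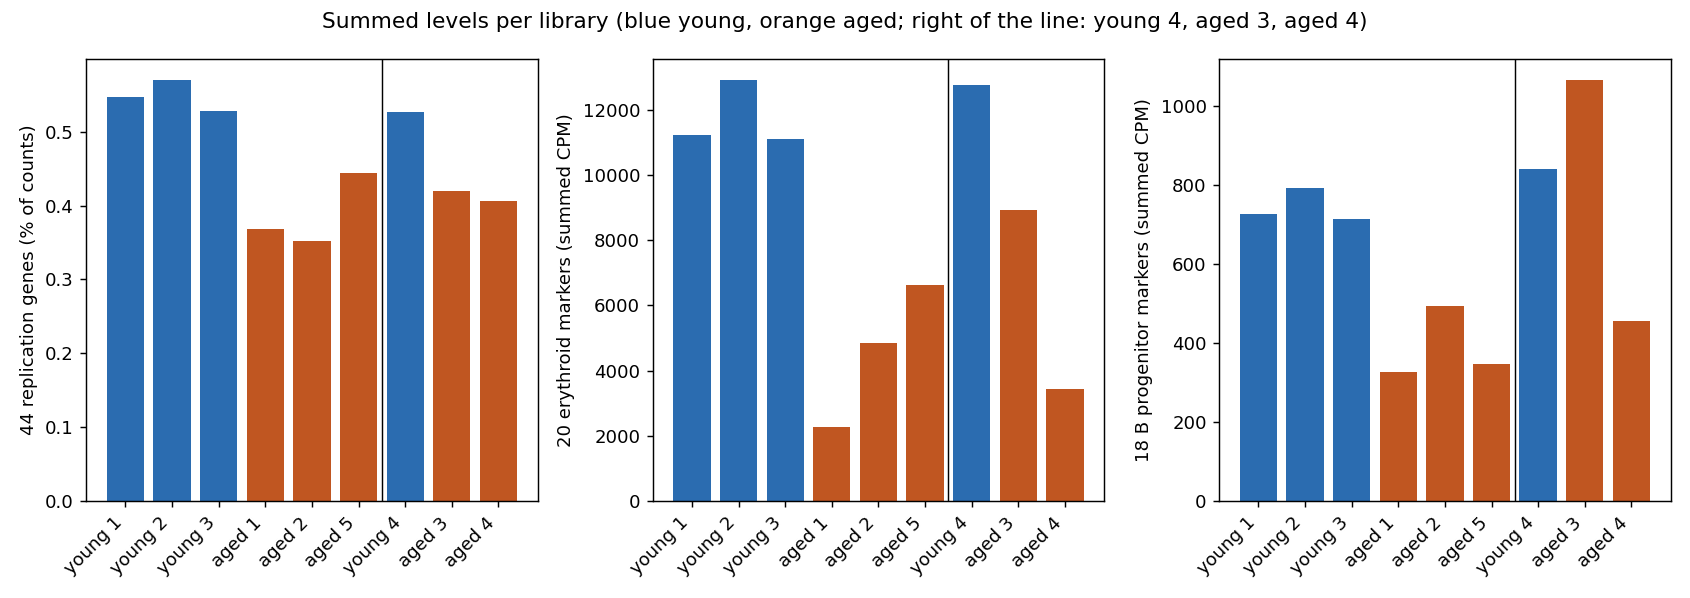
Summed levels per library for the 44 replication genes (left, percent of counts), 20 red cell precursor markers (middle, CPM) and 18 B cell progenitor markers (right, CPM), with young in blue, aged in orange and young 4, aged 3 and aged 4 right of the line. Aged bars are below all young bars on the left and in the middle; on the right aged 3 is the highest bar, at 1067 CPM.

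Since E2F factors switch on many of these genes, the sequences around their starts were searched for the E2F site. RefSeq promoters (build GRCm38.p6, 250 bases before to 50 after the start) were given for 36 of the 44 genes, and Mcm4, Gins1, Gins2, Gins4, Gmnn, Prim2, Pole and Rfc2 were not among them. A gene counted as matched if any of its promoters held the letters, and the 36 genes had 43 promoters. TTTCGCGC or TTTGGCGC, on either strand, was found in 10 of the 36 genes (27.8%, exact binomial interval 14.2% to 45.2%). This stood beside 251 of 27025 genes in the whole promoter table (0.929%). Of the comparison lists described further on, 79 genes had a promoter given, and 10 of them matched (12.7%). The whole table was not matched for base composition. The letters occurred in 4 of 8 helicase genes, 2 of 7 origin genes, 4 of 14 polymerase and fork genes, 0 of 5 nucleotide genes and 0 of 2 chromatin genes. For Mcm3, Mcm7, Cdt1, Lig1 and Pole2 the match lay after the start. For the other 5 it lay before it, and these stretches of 30 bases are shown on the gene's own strand, 5′ to 3′, with the matched letters in capitals. They are all the matches of this form before the start, in genes of 3 roles.
Orc1, chr4:108579416-108579445, plus strand: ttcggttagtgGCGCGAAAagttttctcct
Mcm5, chr8:75109347-75109376, plus strand: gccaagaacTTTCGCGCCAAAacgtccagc
Mcm6, chr1:128359795-128359824, minus strand: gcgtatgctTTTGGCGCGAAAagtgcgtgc
Mcm6, chr1:128359734-128359763, minus strand: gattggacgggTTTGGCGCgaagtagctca
Pola1, chrX:93632275-93632304, minus strand: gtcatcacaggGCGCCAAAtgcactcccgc
Rfc3, chr5:151651209-151651238, minus strand: ccggaagtgacgtcgcacgcTTTCGCGCtc
In Mcm5 and in the first stretch of Mcm6 a match on each strand overlapped, giving 12 capitals. The Orc1 match ended 20 bases before the start and that of Rfc3 ended 3 bases before it. Starts are those given by RefSeq. For 8 of the 10 matched genes, bases 11 to 40 after the start were found in a GENCODE M21 transcript of the gene. CCAAT, the box bound by NF-Y and searched on both strands, was found for 21 of the 36 genes (58.3%). It was found for 41.1% of genes in the whole table and 46 of the 79 genes of the comparison lists (58.2%). It was found in 8 of 8 helicase genes. Cdc6, Rrm2 and Mcm2, the next farthest age differences after Orc1, had no match to TTTCGCGC or TTTGGCGC. Pole2, at −0.24 with the set term, had 1. A wider form, TTTCNCGC or TTTGNCGC with N for any base, matched 14 of the 36 genes (38.9%), Cdc6 and Tyms among them. That form matched 3.93% of genes in the whole table and 20 of the 79 genes of the comparison lists (25.3%). A match is a run of letters and not a measured binding site, and its relation to the age difference was not tested.

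Among the helicase genes all 12 were below 0, at a median of −0.48 with group as the only term and −0.52 with the set term. Mcm2, a subunit of the ring, measured 241, 268, 237 and 272 CPM in young 1 to 4 and 130, 147, 152, 137 and 187 CPM in aged 1 to 5. Its groups did not overlap, and young 4, aged 3 and aged 4 lay within or beside the range of the other libraries of their age. The log2 fold change was −0.76 ± 0.17 (SE, adjusted p 0.266, edgeR) with group as the only term and −0.76 ± 0.13 (adjusted p 0.0405) with the set term. Mcm10, which holds the helicase and the first polymerase together, measured 62.1, 66.0, 64.2 and 65.0 CPM in young libraries and 41.7, 39.8, 46.3, 44.4 and 49.0 CPM in aged ones. All 4 young libraries, young 4 included, lay within a narrow band above every aged one. The mean fell from 64.4 ± 1.68 (SD, n = 4) to 44.2 ± 3.65 CPM (SD, n = 5), with a log2 fold change of −0.55 ± 0.10 and an adjusted p of 0.0405 in edgeR with the set term.

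The other ring subunits had differences of −0.51 to −0.66 with the set term. Mcm6 measured 296, 304, 298 and 391 CPM in young libraries and 203, 200, 237, 245 and 239 CPM in aged ones. Young 4 was the highest and no group overlapped, with a log2 fold change of −0.55 ± 0.10 (adjusted p 0.0407, edgeR) with the set term. Mcm5 measured 274, 288, 271 and 313 CPM in young libraries and 197, 171, 220, 179 and 237 CPM in aged ones, again without overlap. It missed the threshold of edgeR with the set term, at −0.52 ± 0.13 and an adjusted p of 0.0685. Mcm3 measured 228, 240, 227 and 359 CPM in young libraries and 162, 155, 222, 235 and 194 CPM in aged ones. Here aged 4 lay above young 1 and young 3, and the gene was called with the set term (−0.51 ± 0.11, adjusted p 0.0492, edgeR). Mcm4 measured 184, 205, 196 and 314 CPM in young libraries and 118, 117, 184, 187 and 147 CPM in aged ones. Aged 3 and aged 4 reached young 1 while aged 1, 2 and 5 stayed below it, and the set term gave −0.66 ± 0.11 (adjusted p 0.0405, edgeR). Mcm7, the remaining subunit, had −0.66 ± 0.17 (adjusted p 0.074, edgeR) and was not called.

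The GINS subunits and Cdc45, the partners that activate the ring, had values nearer to 0 than the rest of this group with the set term, but not within the 6 libraries, where Gins3 was at −0.62 and Mcm3 at −0.44. Gins2 measured 74.4, 74.0, 64.7 and 114 CPM in young libraries and 45.3, 48.3, 90.9, 79.0 and 55.7 CPM in aged ones. Aged 3 and aged 4 exceeded young 1 to 3 and were below young 4, and the set term gave −0.48 ± 0.10 (adjusted p 0.0498, edgeR). Gins4 measured 32.5, 37.0, 32.1 and 53.2 CPM in young libraries and 23.8, 24.7, 54.1, 40.2 and 28.2 CPM in aged ones, with aged 3 the highest of all. Its difference was −0.18 with group as the only term, nearest to 0 of the helicase genes, −0.34 with the set term, and 0.01 without young 4. Gins1 had −0.49, Gins3 −0.37 and Cdc45 −0.30 with the set term, and none of them was called.

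**Figure D4:**
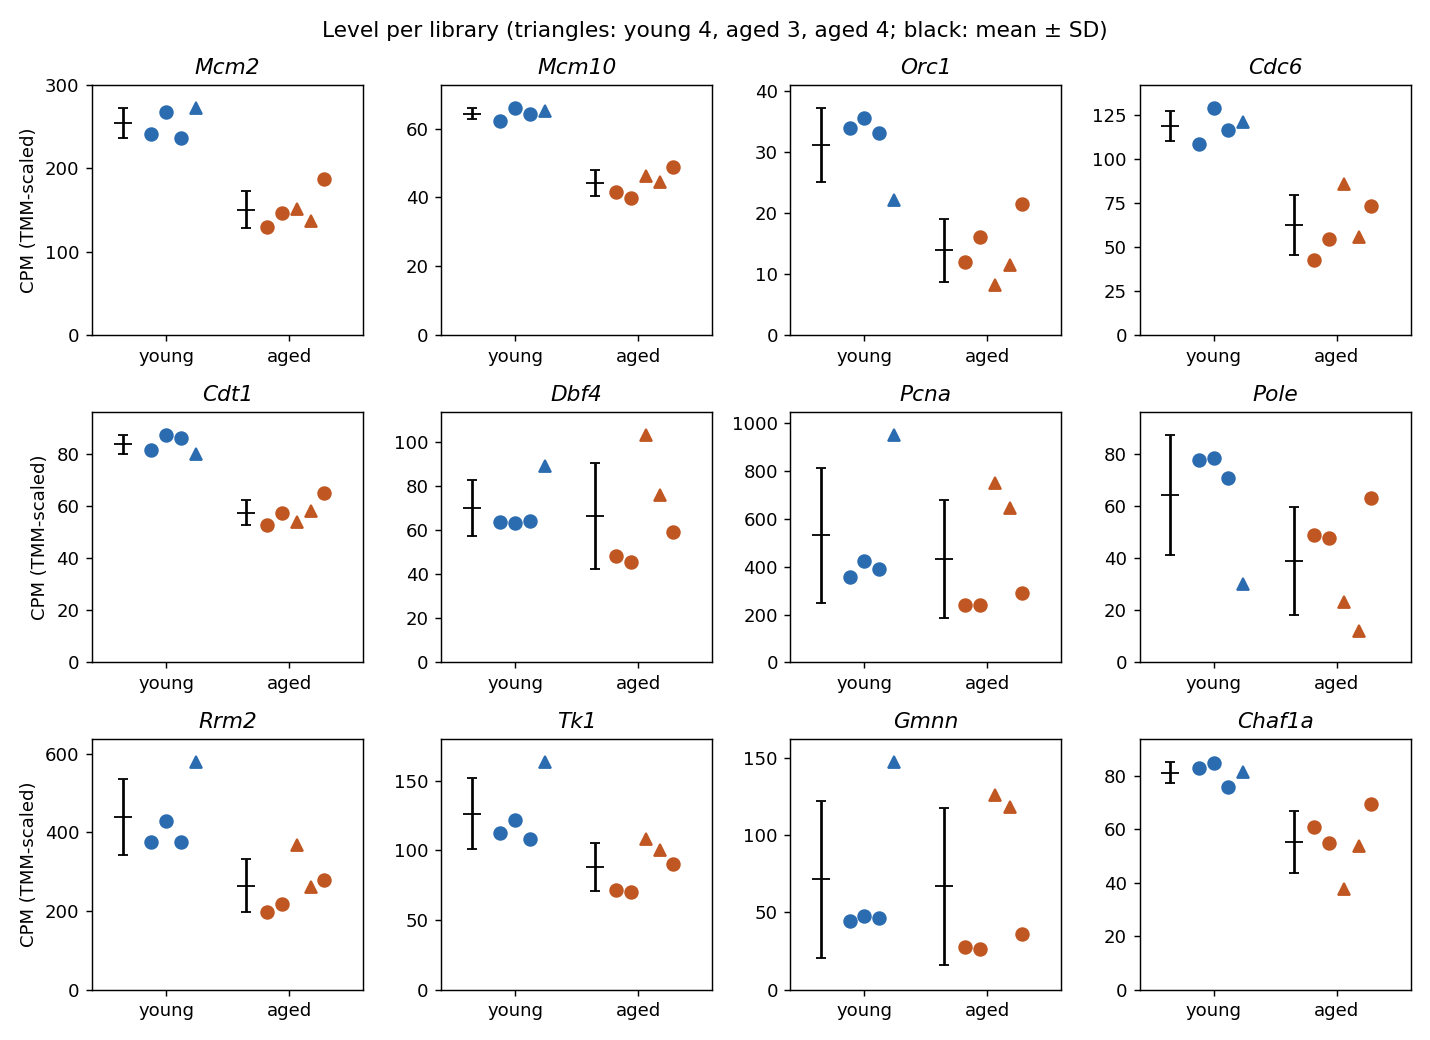
Level in CPM of 12 genes in each library, with the group mean ± SD in black (n = 4 young, n = 5 aged) and triangles for young 4, aged 3 and aged 4. Mcm2, Mcm10, Orc1, Cdc6, Cdt1, Rrm2, Tk1 and Chaf1a do not overlap between groups, whereas the triangles stand far above the circles for Pcna and Gmnn and below them for Pole.

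Origin licensing held the farthest differences of all 44 genes, in Orc1 and Cdc6. All 8 genes of this role were below 0, at medians of −0.39 with group as the only term and −0.53 with the set term. Orc1, the largest subunit of the origin recognition complex, measured 33.9, 35.7, 33.1 and 22.2 CPM in young libraries and 12.0, 16.1, 8.21, 11.6 and 21.6 CPM in aged ones. Young 4 was the lowest young library and aged 5 the highest aged one, and they all but met without overlapping. The log2 fold change was −1.16 ± 0.28 (adjusted p 0.268, edgeR) with group as the only term and −1.08 ± 0.18 (adjusted p 0.0405) with the set term. Cdc6, the loader of the ring, measured 108, 129, 117 and 121 CPM in young libraries and 42.7, 54.7, 86.1, 55.5 and 73.4 CPM in aged ones. Its mean fell from 119 ± 8.67 (SD, n = 4) to 62.5 ± 17.2 CPM (SD, n = 5), and the set term gave −0.97 ± 0.18 (adjusted p 0.0425, edgeR). Cdt1, the second loader, measured 81.7, 87.4, 86.0 and 79.9 CPM in young libraries and 52.8, 57.4, 54.1, 58.3 and 65.1 CPM in aged ones. The library sets did not separate for Cdt1, and the set term gave −0.53 ± 0.09 (adjusted p 0.0405, edgeR).

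Not all origin genes shared these sizes. Orc2 measured 47.9, 55.9, 53.0 and 64.4 CPM in young libraries and 32.6, 37.0, 54.5, 33.3 and 40.9 CPM in aged ones, where only aged 3 reached the young range. It was not called with the set term (−0.52 ± 0.15, adjusted p 0.0989, edgeR). Gmnn, which encodes geminin, the inhibitor of Cdt1, measured 44.4, 47.6, 46.1 and 147 CPM in young libraries and 27.3, 26.3, 126, 118 and 36.3 CPM in aged ones. The 3 libraries of the smaller set stood far above the other 6, and aged libraries were below young ones within each set. The difference was accordingly −0.09 ± 0.59 with group as the only term and −0.51 ± 0.13 (adjusted p 0.0689, edgeR) with the set term. Dbf4 and Cdc7, the subunits of the kinase that fires origins, had the differences nearest to 0 of this group with the set term, at −0.22 ± 0.13 and −0.26 ± 0.18, and neither was called. Dbf4 measured 63.5, 63.3, 64.0 and 89.2 CPM in young libraries and 48.2, 45.4, 103, 76.0 and 59.3 CPM in aged ones, with aged 3 above every young library, and its difference was 0.06 without young 4. Orc6 had −0.65 ± 0.18 (adjusted p 0.0877, edgeR) with the set term and was not called.

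In the polymerase, clamp and fork group all 17 genes were below 0, at medians of −0.40 and −0.48 in the fits without and with the set term. Lig1, the ligase that joins Okazaki fragments, measured 177, 192, 162 and 179 CPM in young libraries and 111, 103, 114, 125 and 141 CPM in aged ones. Its groups did not overlap and young 4 lay among the other young libraries. The set term gave −0.58 ± 0.12 (adjusted p 0.0466, edgeR). Pola2, the regulatory subunit of the polymerase that starts each strand, measured 60.9, 63.3, 60.2 and 59.8 CPM in young libraries and 44.1, 47.1, 35.1, 39.2 and 49.2 CPM in aged ones. Young libraries again lay together above the aged ones, with −0.48 ± 0.10 (adjusted p 0.0455, edgeR). Pola1, the catalytic subunit of the same enzyme, measured 65.5, 64.4, 67.4 and 44.9 CPM in young libraries and 45.3, 41.7, 36.3, 34.1 and 53.9 CPM in aged ones. Young 4 was the only young library within the aged range, and the gene was not called (−0.45 ± 0.10, adjusted p 0.0625, edgeR).

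Fen1, Rfc3 and Rpa2 were called with the set term and had a wide gap between the sets. Fen1, the nuclease that trims Okazaki fragments, measured 125, 142, 121 and 320 CPM in young libraries and 72.7, 81.0, 211, 175 and 98.8 CPM in aged ones. Young 4 was over all others, aged 3 and aged 4 were over young 1 to 3, and the set term gave −0.65 ± 0.12 (adjusted p 0.0405, edgeR). Rpa2, a subunit of the protein that coats single-stranded DNA, measured 56.3, 65.1, 57.7 and 159 CPM in young libraries and 38.8, 38.0, 100, 95.8 and 48.2 CPM in aged ones. Young 4, aged 3 and aged 4 were again the highest, and the set term gave −0.57 ± 0.11 (adjusted p 0.0405, edgeR). Rfc3, a subunit of the clamp loader, measured 27.5, 32.5, 28.4 and 63.3 CPM in young libraries and 18.8, 20.2, 43.3, 40.9 and 22.6 CPM in aged ones, with −0.54 ± 0.10 (adjusted p 0.043, edgeR). Rpa1, the large subunit beside Rpa2, measured 145, 152, 143 and 253 CPM in young libraries and 111, 113, 76.6, 144 and 123 CPM in aged ones. Aged 3 was the lowest of all libraries for Rpa1 but not for Rpa2, and Rpa1 was not called (−0.62 ± 0.21, adjusted p 0.141, edgeR).

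The clamp itself and the remaining polymerase genes did not pass. Pcna measured 358, 422, 391 and 949 CPM in young libraries and 238, 239, 747, 645 and 291 CPM in aged ones. Within each set the aged libraries were below the young ones, while aged 3 and aged 4 exceeded young 1 to 3. With the set term the difference was −0.56 ± 0.12 at an adjusted p of 0.0521 in edgeR, next to the threshold. Pole, the catalytic subunit of the leading strand polymerase, went the other way between the sets, with 77.7, 78.7, 71.0 and 30.2 CPM in young libraries and 49.1, 47.8, 23.4, 12.2 and 63.1 CPM in aged ones. Its difference was −0.59 ± 0.18 (adjusted p 0.12, edgeR) with the set term. Rfc2, another clamp loader subunit, measured 97.4, 96.2, 90.4 and 163 CPM in young libraries and 74.6, 68.9, 134, 145 and 86.3 CPM in aged ones. Its difference was nearest to 0 of this group with group as the only term (−0.13), and it was 0.11 without young 4 and −0.28 with the set term. The set term gave −0.65 for Rfc4, −0.41 for Rfc5, −0.40 for Prim1, −0.43 for Prim2, −0.40 for Pold1, −0.32 for Pold2 and −0.24 for Pole2, and none of these was called.

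Nucleotide supply had the lowest median of the 5 roles with the set term, at −0.63, and −0.52 with group as the only term. Rrm2, the ribonucleotide reductase subunit whose level rises in S phase, measured 375, 428, 375 and 579 CPM in young libraries and 197, 217, 368, 260 and 280 CPM in aged ones. The groups did not overlap, although aged 3 came close to young 1 and young 3. Its mean fell from 439 ± 96.1 (SD, n = 4) to 264 ± 66.8 CPM (SD, n = 5), with −0.80 ± 0.15 and an adjusted p of 0.0405 in edgeR with the set term. Rrm1, the other subunit of that enzyme, measured 365, 385, 366 and 547 CPM in young libraries and 220, 209, 274, 343 and 290 CPM in aged ones, also without overlap. The set term gave −0.69 ± 0.13 (adjusted p 0.0432, edgeR).

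Both enzymes of thymidylate were called as well. Tk1, the salvage kinase, measured 112, 122, 108 and 164 CPM in young libraries and 71.6, 69.8, 108, 101 and 90.1 CPM in aged ones, where aged 3 lay just under young 3. The set term gave −0.59 ± 0.11 (adjusted p 0.0405, edgeR). Tyms, the enzyme that makes thymidylate anew, measured 62.9, 69.3, 67.2 and 132 CPM in young libraries and 41.5, 37.0, 86.0, 82.8 and 50.4 CPM in aged ones. Aged 3 and aged 4 exceeded young 1 to 3 but not young 4, and the set term gave −0.63 ± 0.11 (adjusted p 0.0405, edgeR). Dut, which removes dUTP, measured 68.9, 80.1, 83.9 and 135 CPM in young libraries and 57.3, 47.8, 110, 141 and 61.9 CPM in aged ones. Aged 4 was the highest of all libraries, and Dut was not called (−0.37 ± 0.13, adjusted p 0.175, edgeR). Without young 4 and with group as the only term, the differences of Dut and Rpa2 were 0.11 and 0.10.

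Both subunits of chromatin assembly factor, which places histones on new DNA, were below 0 and neither was called. Chaf1a measured 82.9, 84.9, 75.7 and 81.3 CPM in young libraries and 60.9, 54.8, 37.8, 53.6 and 69.3 CPM in aged ones. Its groups did not overlap, and the set term gave −0.53 ± 0.14 (adjusted p 0.0802, edgeR). Chaf1b measured 36.7, 40.6, 37.5 and 54.3 CPM in young libraries and 25.3, 21.1, 44.9, 24.1 and 35.1 CPM in aged ones, where only aged 3 reached the young range. The set term gave −0.54 ± 0.20 (adjusted p 0.183, edgeR).

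Levels of different genes were compared per length, in the deposited TPM, a unit that divides by transcript length, within young 1 to 3 and aged 1, 2 and 5. Pcna was the most abundant, at 362 ± 11.7 TPM (SD, n = 3) in young and 265 ± 36.2 TPM (SD, n = 3) in aged libraries, followed by Rrm2 at 241 ± 13.5 and 158 ± 25.2 TPM. Of the ring subunits Mcm7 (156 ± 10.1 TPM), Mcm3 (135 ± 7.56 TPM), Mcm6 (127 ± 5.85 TPM) and Mcm5 (126 ± 7.10 TPM) stood above Mcm2 (92.0 ± 5.03 TPM) and Mcm4 (67.8 ± 0.547 TPM) in young libraries. Mcm6 and Mcm5 differed by less than their spread. The scarcest were Orc1 (16.7 ± 1.02 TPM), Pola1 (15.3 ± 1.01 TPM) and Gins3 (11.1 ± 0.631 TPM). The order of the first 2 genes was the same in aged libraries, while Orc1 at 8.11 ± 2.03 TPM lay beside Gins3 at 7.58 ± 1.24 TPM there, within their spread.

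The difference between the library sets was larger than that between ages for many of these genes. With age in the fit, 36 of the 44 were above 0 in young 4, aged 3 and aged 4 relative to the other 6 libraries, at a median of 0.45, and edgeR called 24 as higher (24.6% of all genes) and 4 as lower (24% of all genes). The 4 lower ones were Orc1, Pola1, Pold1 and Pole. Gmnn (1.89), Orc6 (1.51) and Pcna (1.38) had the highest log2 difference and Pole (−1.48) the lowest. Gmnn is also the shortest of the 44 genes in the deposited table, at 963 bases, and Pole the longest, at 7163 bases. Across the 44 genes Spearman's rho of this set difference with length was −0.59, and −0.47 across all genes tested. The 22 shorter genes (963 to 2519 bases) had a median set difference of 0.68 and the 22 longer ones (2559 to 7163 bases) 0.26. For the age difference rho was −0.52 with group as the only term, −0.15 with the set term and 0.08 within the 6 libraries. Genes share the libraries, so these values only describe them.

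**Figure D5:**
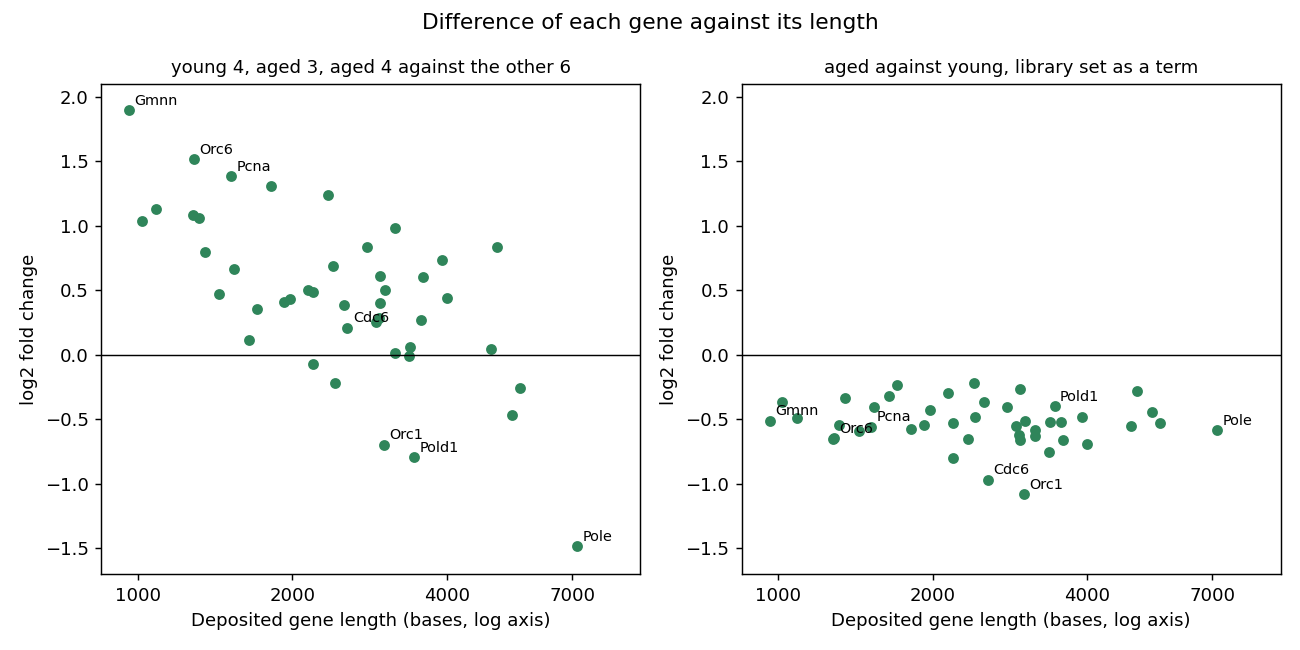
Log2 difference of each of the 44 genes against its deposited length (log axis), between young 4, aged 3 and aged 4 and the other 6 libraries (left) and between aged and young with the set as a term (right). The left panel slopes from Gmnn (1.89, 963 bases) to Pole (−1.48, 7163 bases), while the right panel is flat and wholly below 0.

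Neighbouring genes of the same pathways were less uniform with group as the only term, apart from the mitosis genes. With the set term 26 of 30 other replication factors, 9 of 9 chromatin genes and 17 of 17 mitosis genes were below 0. So were 17 of 22 S phase transcription factors, cyclins and kinases and 9 of 17 other nucleotide enzymes. Of 30 other replication factors 24 were below 0 with group as the only term (median −0.28), and with the set term 1 was called lower, Pole3, a histone-fold subunit of the leading strand polymerase (−0.47 ± 0.10, adjusted p 0.047, edgeR). Recql4, a helicase, had −0.78 ± 0.17 (adjusted p 0.0521, edgeR) and Chtf18, of an alternative clamp loader, −0.64 ± 0.15 (adjusted p 0.0605, edgeR). Pold4, a small subunit of the lagging strand polymerase, was at 0.29 and Orc4, of the origin complex, at 0.08. Of 17 other nucleotide enzymes only 10 were below 0, at a median of −0.04 with group as the only term, and 3 were called lower with the set term. Among them were the folate enzyme Mthfd1 (−0.46 ± 0.09, adjusted p 0.0455, edgeR) and the deoxycytidine kinase Dck (−0.57 ± 0.12, adjusted p 0.047, edgeR). Nme1 and Cmpk1, kinases that act on nucleotides outside S phase too, were at 0.02 and 0.22 and were not called.

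Of 9 other genes of chromatin assembly and maintenance at the fork, 8 were below 0 with group as the only term (median −0.22). With the set term 2 were called lower. They were Uhrf1, which recruits the maintenance methyltransferase (−0.74 ± 0.11, adjusted p 0.0405, edgeR), and Slbp, which binds histone messenger RNA (−0.67 ± 0.13, adjusted p 0.0445). Uhrf1 measured 251, 269, 245 and 260 CPM in young libraries and 146, 148, 135, 149 and 185 CPM in aged ones, with no overlap and no visible gap between the sets. Hat1 and Hells of this list were at −0.23 and −0.10 and were not called. Among 22 transcription factors, cyclins and kinases of S phase 16 were below 0 with group as the only term (median −0.29). With the set term 4 were called lower. These were E2f2 (−0.84 ± 0.16, adjusted p 0.0406, edgeR), E2f4 (−0.77 ± 0.13, adjusted p 0.0405), and the cyclins of S phase entry Ccne1 (−0.88 ± 0.18, adjusted p 0.0466) and Ccne2 (−0.81 ± 0.13, adjusted p 0.0405). Cyclin D2 (Ccnd2) and the cell cycle inhibitor Cdkn1a lay above 0, at 1.63 ± 0.38 (adjusted p 0.0625, edgeR) and 0.84 ± 0.31 (adjusted p 0.182), and neither was called. All 17 mitosis genes were below 0 in both fits (median −0.42 with group as the only term). Of these 1 was called lower with the set term, Birc5 (−0.67 ± 0.13, adjusted p 0.0455, edgeR). Cenpf, of the kinetochore, had −0.78 ± 0.18 (adjusted p 0.0639, edgeR), and Cdk1, the mitotic kinase, had −0.42 ± 0.18 (adjusted p 0.25).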

How the data were processed

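Libraries of bulk RNA, 4 young and 5 aged, were read from 1 deposited table and grouped by their labels. Bowtie 0.12.2 and mm8 were named in the submitters' processing notes, without a role. The quantifier, annotation and use of strand are not given in the sources used here, so reads shared with pseudogenes or with genes on the opposite strand cannot be told apart. The expected counts deposited per gene and library were rounded to whole numbers. The TPM values deposited beside them were used for levels between genes, since they account for length, and as an alternative on the log2(TPM + 1) scale. The log2 fold changes, p-values and adjusted p-values deposited by the authors were copied for the 44 genes, and the settings behind them are not given in the sources used here.

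Tests were two-sided and used the quasi-likelihood method of edgeR 4.0.16 (R 4.3.3), with TMM factors, filterByExpr (minimum count 10, total 15) and Benjamini-Hochberg adjustment over all genes tested. The 2 library sets are those on either side of the widest gap in ribosomal protein counts. Alternatives were other scalings, filters and terms, limma-voom (limma 3.58.1), DESeq2 1.42.0 and each library left out. Library totals of 19804783 to 23548521 set the depth, and the model holds counting error apart from the fitted dispersion. The biological coefficient of variation was 0.464 with group as the only term and 0.287 with the set term. Scripts were tested on simulated data.

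The members, roles, comparison lists and named-gene rule were chosen with earlier results of these data known. Values per library are given for the 4 genes of each role with the smallest p (both for chromatin assembly), each gene called with the set term and the gene of each role with the highest log2 fold change. In each comparison list up to 2 genes with the smallest p and up to 2 with the highest log2 fold change were named. Pcna, Gmnn, Pole, Pole3, Slbp, E2f2, Ccne1, Ccne2 and Birc5 were added after their values were seen, and 1 other called gene of these lists is not reported here. Intervals of promoter shares are exact binomial intervals (95%). Figures used Python 3.11.15, pandas 2.3.3 and matplotlib 3.10.9.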

Additional observations from a re-analysis of the deposited data

Results flagged for a closer look

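Among the named genes, 12 of 56 combinations of gene and age group had 1 library far from the others, and in each of them it was young 4. Chance alone sets about 1 in 20 such groups apart, and combinations of different genes share the same libraries. Young 4 was also the only young library of the smaller set, so that share is no fair yardstick for it. Aged 3 and aged 4 both belong to that set, so a search for 1 library apart could miss them. The share over all genes was not counted. Young 4 was the highest young library for Mcm3 (359 CPM), Mcm4 (314 CPM), Mcm6 (391 CPM), Dbf4 (89.2 CPM), Rfc2 (163 CPM), Rfc3 (63.3 CPM), Fen1 (320 CPM), Rpa1 (253 CPM), Rpa2 (159 CPM), Rrm1 (547 CPM) and Tyms (132 CPM). It was the lowest for Pola1 (44.9 CPM). Over all 44 genes 21 of 88 combinations stood out in this way: young 4 was the highest in 17 and the lowest in 2, and aged 3 and aged 4 were the highest in 1 each.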

How the results depend on the processing

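With group as the only term, the count of called genes was 0 in edgeR and became 2 in the 6 libraries, 5 with set and Y-linked terms, 319 (217 lower, 102 higher) with the set term and 360 with DESeq2, and ranged from 0 to 6 with 1 library left out (6 without aged 5). The count of replication genes was 0, and became 18 with the set term and 8 with DESeq2, and 0 with set and Y-linked terms. With the set term, the 319 genes became 1604 with DESeq2, 997 without the low-count filter and 118 with library totals only, which also turned the split to 39 lower and 79 higher. Leaving out 1 library gave 0 to 1633 genes and 0 to 33 replication genes. Beside the 18, DESeq2 gave 28, library totals only 1, limma-voom 19, RLE factors 16, removal of hemoglobin, immunoglobulin and ribosomal protein genes 17 and no filter 21. Over all 16576 genes, limma-voom called 378 (298 lower), RLE factors 278 (178 lower) and that removal 283 (186 lower). Replicate numbers did not pair the libraries (r of same-numbered libraries −0.387 to 0.739, and 2 of 4 young libraries correlated best with their own number). With a replicate block, which left out aged 5, 13 genes were called, and with block and set term 1489 genes and 31 replication genes. With 1 library left out and group as the only term, log2 fold changes ranged from −0.41 to 0.011 for Gins4, −0.29 to 0.061 for Dbf4, −0.29 to 0.11 for Rfc2, −0.61 to 0.10 for Rpa2 and −0.41 to 0.11 for Dut, with the highest value always without young 4. Without young 4, Gins1, Orc6, Gmnn, Rfc5 and Pcna were above 0 as well. Gmnn was above 0 too without aged 1, aged 2 or aged 5, Dbf4 without aged 1 or aged 2, and Dut without aged 2. Dbf4 was also above 0 in the 3-library set (0.069), and Rfc2 in TPM (0.044). The median of the 44 stayed below 0 under every alternative, from −0.61 to −0.30. The causes were not tested. Each of the 44 genes had 134 or more counts in each library, and the effect of depth was not tested.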

Other observations

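The deposited TPM and counts of some replication genes moved apart between the library sets. The ratio of Rrm2 to Rrm1 in TPM was 1.71 to 1.98 in young 1 to 3 and 1.70 to 1.80 in aged 1, 2 and 5, but 0.582 in young 4, 0.80 in aged 3 and 0.499 in aged 4. In CPM the same ratio was 1.02 to 1.11 in young 1 to 3, 0.894 to 1.03 in aged 1, 2 and 5, and 1.06, 1.34 and 0.757 in young 4, aged 3 and aged 4. The count held per unit of TPM, per base and relative to the median of the 44 genes in the library, was 0.35 times as high in those 3 libraries as in the other 6 for Rrm1, 0.32 times for Pole, 0.34 times for Pold1, 0.43 times for Mcm3 and 0.49 times for Lig1. It was 1.43 times as high for Rpa1 and 1.35 times for Orc2, and near 1 for Mcm2 (1.00), Mcm6 (1.00), Pcna (1.01) and Gins4 (1.01). Rrm1, without overlap in CPM, overlapped between the age groups in TPM. Aged 3 and aged 4 had 136 and 194 TPM, above the 127 to 132 TPM of young 1 to 3, and young 4 had 254 TPM. A cause was not tested.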
